A study of Mus musculus with 6 samples.

Results

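Transcript levels of 8 transcription factors associated with T cell memory and quiescence (Tcf7, Lef1, Bach2, Id3, Bcl6, Satb1, Zeb1 and Zeb2) were examined in thymic iNKT1 cells with and without floxed Tgfbr2. The factors were taken by gene symbol, and all 8 were present among the 17985 genes of the deposited table. All 8 also passed the filter on low values (a mean of 1 CPM or more, CPM being the usual read count adjusted for library depth), which left 15691 genes for testing. iNKT1 cells are the T-bet-expressing, interferon-producing subset of invariant natural killer T cells. RNA was sequenced from thymic iNKT1 cells of untreated C57BL/6 mice, with 3 libraries in each of 2 groups. The control group, Ctrl, had the genotype Tbx21CreTg;Rosa26-LSL-YFP+/+, so that it carried the Cre transgene and the yellow fluorescent reporter but no floxed receptor allele. The knockout group, cKO, had the genotype Tbx21CreTg;Rosa26-LSL-YFP+/+;Tgfbr2F/F, which adds floxed alleles of the TGF-beta type II receptor. Cre under Tbx21 control acts only once a cell has expressed that gene, so recombination occurs within the T-bet-expressing lineage and in any other cell that has used the promoter. The labels gave neither the age of the mice nor the number of mice per library. The series design calls the libraries independent replicates without naming what separates them, so p-values measure the spread between these libraries.

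TCF-1 (Tcf7) and LEF-1 (Lef1) are related HMG-box factors that bind DNA with or without beta-catenin and keep naive and memory T cells able to renew. BACH2 and BCL6 are repressors that hold lymphocytes back from terminal effector differentiation, ID3 inhibits the E proteins that drive thymocyte development, and SATB1 organizes chromatin in thymocytes. ZEB1 and ZEB2 are zinc-finger repressors of one family that bind E-boxes and can partner with SMAD proteins, the transducers of TGF-beta signals. In CD8 T cells, Zeb1 is known from memory cells and Zeb2 from terminally differentiated effectors.

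Sequence around the 5′ ends is shown for the 3 factors to which the results return most: Tcf7, Lef1 and Id3. All stretches are from RefSeq on GRCm38.p6 and are written 5′ to 3′ on the strand of the gene. From the RefSeq table, windows of 250 bases before an annotated start were used for 7 of the 8 factors. These were 19 windows in all, some of them overlapping, so that a site could be counted more than once. Some starts lay within the gene: the only Bach2 start lay 178631 bases from the edge of the gene. No window of Zeb1 was used, so the motif shares below do not cover that factor. The Tcf7 stretch, chr11:52283015-52283179 on the minus strand, lies directly before the annotated start and opens with an ATG, in capitals. The frame from this ATG ran through 55 codons to the end of the window without a stop codon. Tcf7 is known for a long protein with the beta-catenin-binding region and a short one without it, and a value per gene cannot tell these forms apart.
Tcf7: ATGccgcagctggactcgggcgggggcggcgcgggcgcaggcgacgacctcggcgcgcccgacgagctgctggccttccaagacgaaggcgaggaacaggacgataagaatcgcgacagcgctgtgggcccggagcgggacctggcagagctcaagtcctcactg
The Lef1 window, chr3:131110047-131110296 on the plus strand, is shown with a TCF/LEF core CTTTG 161 bases and a SMAD box CAGAC 91 bases before the start in capitals.
Lef1: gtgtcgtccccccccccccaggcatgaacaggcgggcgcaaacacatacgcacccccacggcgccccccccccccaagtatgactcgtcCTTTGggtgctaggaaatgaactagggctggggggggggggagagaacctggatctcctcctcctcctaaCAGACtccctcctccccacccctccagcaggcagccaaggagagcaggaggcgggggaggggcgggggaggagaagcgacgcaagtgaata
For Id3, 2 stretches of 30 bases are shown around the SMAD boxes CAGAC and GTCTG, whose first bases lie 167 and 68 bases before the start. They are chr4:136143643-136143672 and chr4:136143742-136143771 on the plus strand.
Id3 distal: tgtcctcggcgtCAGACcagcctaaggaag
Id3 proximal: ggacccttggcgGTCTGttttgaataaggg
The SMAD box (CAGAC or GTCTG, so both strands) occurred in 9 of the 19 windows, 47.4%, against 42.2% of all 32851 windows in the table. The TCF/LEF core (CAAAG or CTTTG) occurred in 13 of the 19, 68.4%, against 48.6% of all windows. Counted by factor, the SMAD box and the TCF/LEF core each occurred in 5 of 7. A share by gene over all windows was not computed. The E-box of ZEB type (CACCTG or CAGGTG) occurred in 1 of the 19, 5.26%, against 17.2% of all windows. The 3 motifs share no letters that overlap in the printed stretches, and a match is a description of the letters only.

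The targeted gene was lower in every cKO library. Tgfbr2 stood at 461, 461 and 425 CPM in Ctrl against 289.8, 258 and 274 CPM in cKO, which was 61.0% of the Ctrl mean (limma, adjusted p = 0.0207). A value per gene includes reads outside the floxed part, so it does not give the share of recombined cells. Libraries held between 28832779 and 68092478 reads, and 1 read was worth 0.0147 to 0.0347 CPM. The 9 iNKT1 identity genes (Tbx21, Zbtb16 and others) were all present and none was at 0, with summed levels of 7731 to 9433 CPM in Ctrl against 7996 to 11084 CPM in cKO. Of the 9, the chemokine gene Xcl1 was lower in cKO at 50.5% of the Ctrl mean (limma adjusted p = 0.0281). Il2rb passed as higher only with the replicate number in the model (limma adjusted p = 0.0166). Klrb1c, named after its values were seen, was uneven in Ctrl, at 566, 180 and 703 CPM against 640, 870 and 1021 CPM in cKO. Replicate 3 of both groups stood apart: 4406 and 4590 genes were listed at 0 there, against 0 to 5 genes in the other libraries. Among the 6938 tested genes with a mean below 10 CPM, replicates 1 and 2 exceeded replicate 3 by a median of 1.32 on the log2(CPM + 1) scale. The first principal component, with 85.1% of the variance, follows this split. Fewer cells of a type and less RNA per cell cannot be told apart in bulk samples.

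Of the 8 factors, none passed an adjusted p of 0.05 in limma with group as the only term. In that fit 104 genes, 0.663% of those tested, were called in either direction, and 2 factors (Tcf7 and Id3) had an unadjusted p below 0.05. Ctrl and cKO libraries of the same number deviated together from their group means, so a fit with the replicate number as a block was also made. This shared deviation does not settle how replicates 1 and 2 of the groups match. With the block, Tcf7 alone was called, as higher in cKO, beside 194 higher genes (1.24% of those tested) and 257 lower genes (1.64%). Tcf7 was also the one factor whose groups did not overlap with cKO higher, a pattern held by 610 genes (3.89%). No factor had all cKO libraries below all Ctrl libraries, a pattern held by 1114 genes (7.10%). In the 3 same-numbered pairs, 5 of the 8 factors (Tcf7, Lef1, Bach2, Satb1 and Zeb2) were higher in cKO every time, against 11.5% of tested genes, and only Id3 was lower every time, against 18.5%. The median difference, cKO minus Ctrl, was 0.17 over the factors and −0.04 over all tested genes on the log2(CPM + 1) scale.

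**Figure D1:**
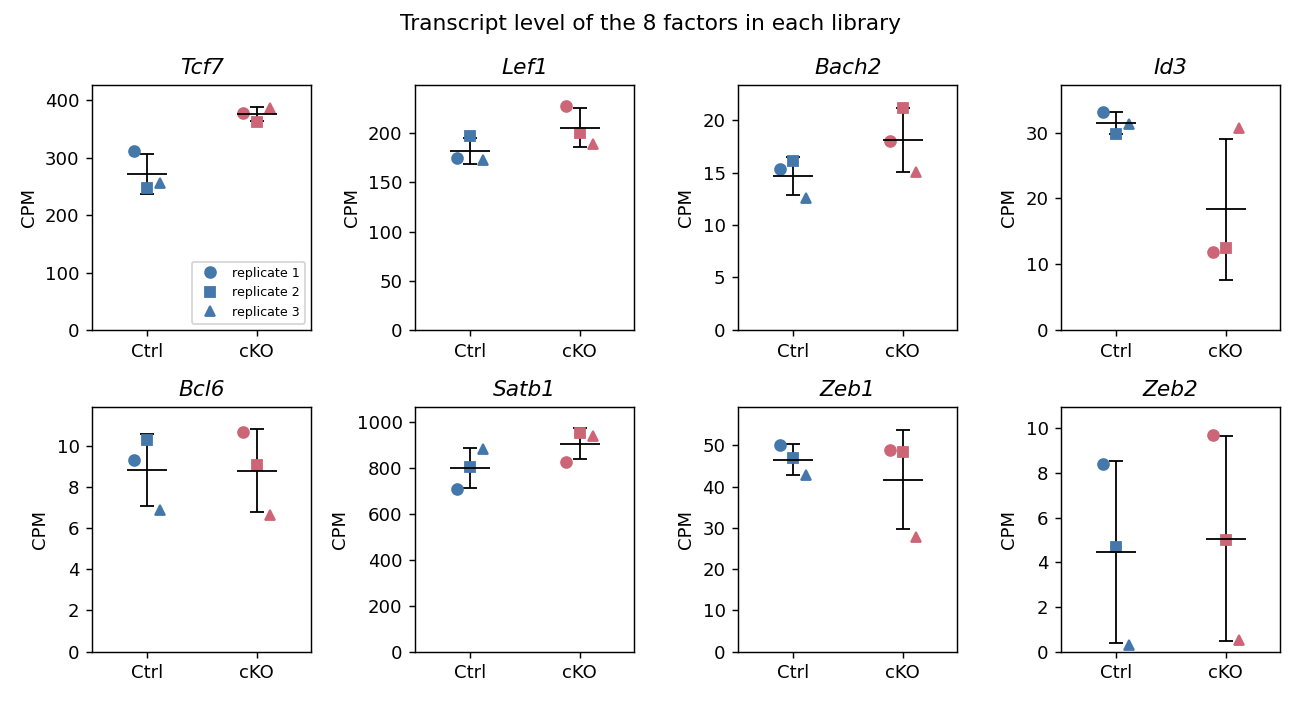
Level of each factor in CPM (vertical axes, each starting at 0) in the 3 Ctrl libraries (blue) and the 3 cKO libraries (red), with circles, squares and triangles for replicates 1, 2 and 3 and black lines for the mean and SD. The cKO libraries of Tcf7 lie above all Ctrl libraries, Id3 is low in cKO replicates 1 and 2 but not in replicate 3, and Zeb2 is near 0 in replicate 3 of both groups.

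Tcf7 (ENSMUSG00000000782, chromosome 11, 52252371 to 52283014, minus strand) measured 312, 247 and 257 CPM in Ctrl against 377, 363 and 387 CPM in cKO. The lowest cKO library lay above the highest Ctrl library, and the cKO libraries were also closer to each other than the Ctrl libraries. The means were 272 ± 35.3 (SD, n = 3) and 376 ± 12.1 CPM (SD, n = 3), a 1.38-fold difference, and the single pairs gave 1.21, 1.47 and 1.51-fold. The log2 difference was 0.47 with a 95% interval of 0.22 to 0.73 and a limma adjusted p of 0.227. With the replicate block, the interval was 0.27 to 0.67 and the limma adjusted p was 0.0239. Tcf7 was thus called only when the replicate number was in the model, or by DESeq2 (adjusted p = 0.00112). Without the replicate 2 pair, the call with the block was lost (limma adjusted p = 0.104). The authors' deposited table gave Tcf7 a log2 fold change of 0.54, with a p of 0.0224 and an adjusted p of 0.999975.

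The sums of 2 marker lists, for double-positive thymocytes and for epithelial and stromal cells, were higher in cKO. In each case this came mainly from a single gene, so the sums do not show more of those cells. Of 10 double-positive thymocyte markers, 8 were in the table and none was at 0, and their summed level was 187 to 193 CPM in Ctrl against 221 to 261 CPM in cKO. Cd4 accounted for the gap: without it the sum of the other 7 was 63.4 to 74.8 CPM in Ctrl against 46.3 to 77.0 CPM in cKO. Rag1, which defines developing thymocytes, was near 0, at 0.283 to 1.20 CPM in Ctrl against 1.22 to 2.88 CPM in cKO. Of 8 epithelial and stromal markers, 4 were in the table, with sums of 26.5 to 32.1 CPM in Ctrl against 52.9 to 66.5 CPM in cKO, mostly from Pecam1. By log2 difference, 1 of these 4 was higher and 3 were lower in cKO. Among the 7 tested double-positive markers, 5 were higher and 2 lower. Col1a2 and Pdgfra were at 0 in at least 1 library, and Krt5, Krt8, Foxn1 and Cdh5 were not in the table. The part of these cells in the Tcf7, Lef1 and Satb1 values was not tested.

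Lef1 (ENSMUSG00000027985, chromosome 3, 131110471 to 131224356, plus strand) measured 175, 197 and 173 CPM in Ctrl against 228, 200 and 189 CPM in cKO. The groups overlapped, because cKO replicate 3 lay below Ctrl replicate 2. The means were 182 ± 13.1 and 206 ± 20.0 CPM (SD, n = 3 per group), and the pairs gave 1.30, 1.02 and 1.09-fold. The log2 difference of 0.18 had a 95% interval of −0.07 to 0.42, which includes 0.

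Of 14 tested partners of TCF-1 and LEF-1, none passed in either direction, with or without the block, and their median log2 difference was −0.08. Tle3, a Groucho-type corepressor, had the smallest p of the list, with 45 ± 5.74 CPM in Ctrl against 58.7 ± 11.2 CPM in cKO (SD, n = 3 per group). Axin2, a feedback inhibitor and common readout of beta-catenin activity, was at 7.64 ± 1.36 and 10.1 ± 2.89 CPM, with an interval of −0.27 to 0.94 for its log2 difference.

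Satb1 (ENSMUSG00000023927, chromosome 17, 51736187 to 51833290, minus strand) was the factor with the most reads per gene, at 711, 806 and 882 CPM in Ctrl against 828, 953 and 940 CPM in cKO. The groups overlapped, since cKO replicate 1 lay below Ctrl replicate 3, but cKO was the higher library in each pair, by 1.16, 1.18 and 1.07-fold. The means were 799.9 ± 85.9 and 907 ± 68.7 CPM (SD, n = 3 per group). The log2 difference of 0.18 had an interval of −0.07 to 0.44, which the block narrowed to 0.03 to 0.34 (limma adjusted p = 0.308). Among its tested relatives, neither Cux1 nor Cux2 passed either fit. Cux1 was at 79.9 ± 5.86 CPM in Ctrl against 91.4 ± 10.4 CPM in cKO (SD, n = 3 per group), and Cux2 was listed at 0 in replicate 3 of both groups.

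Bach2 (ENSMUSG00000040270, chromosome 4, 32238804 to 32586108, plus strand) measured 15.3, 16.1 and 12.6 CPM in Ctrl against 18.0, 21.2 and 15.1 CPM in cKO. Replicate 3 was the lowest library of each group, so the groups overlapped although cKO was higher in each pair, by 1.18, 1.32 and 1.20-fold. The means were 14.7 ± 1.83 and 18.1 ± 3.05 CPM (SD, n = 3 per group), and the log2 difference of 0.28 had an interval of −0.13 to 0.70.

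Bcl6 (ENSMUSG00000022508, chromosome 16, 23965052 to 23988852, minus strand) measured 9.28, 10.3 and 6.89 CPM in Ctrl against 10.6, 9.06 and 6.65 CPM in cKO. The 2 groups covered almost the same range, with means of 8.81 ± 1.73 and 8.79 ± 2.01 CPM (SD, n = 3 per group). The pairs went both ways, at 0.18, −0.16 and −0.04 on the log2 scale. With the block, the 95% interval of the difference was −0.39 to 0.37, which includes 0.

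Bach2 and Bcl6 are strongly expressed in B cells. Of 8 B cell markers, 6 were in the table, and Ebf1 and Fcer2a were at 0 in at least 1 library. Their summed level was 12.8 to 19.2 CPM in replicates 1 and 2, against 4.82 CPM in replicate 3 of Ctrl and 3.32 CPM in replicate 3 of cKO. That split came from Ms4a1, Ebf1, Blnk and Fcer2a, while Cd79a and Cd79b went the other way. Cd79a averaged 2.03 CPM in replicates 1 and 2 against 2.26 CPM in replicate 3, and Cd79b 1.13 against 1.36 CPM. Tested genes below 10 CPM had a median gap of 1.32 between these replicates on the log2(CPM + 1) scale. Bach2 and Bcl6 were 1.28-fold and 1.45-fold higher in replicates 1 and 2 than in replicate 3. The part of B cells in these levels was not tested.

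Of 11 tested partners and opponents of BACH2 and BCL6, none passed in either direction in either fit, and their median log2 difference was 0.16. The smallest p belonged to Nfe2l2, the stress-response activator that competes with BACH factors for MAF partners, at 89.8 ± 6.15 CPM in Ctrl against 109 ± 6.49 CPM in cKO (SD, n = 3 per group; limma adjusted p = 0.573). Prdm1, which encodes BLIMP-1, the effector factor that opposes BCL6, was at 28.3 ± 3.32 and 36.3 ± 6.30 CPM, with an interval of −0.04 to 0.72 on the log2 scale.

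Id3 (ENSMUSG00000007872, chromosome 4, 136143497 to 136145755, plus strand) gave the largest difference of the 8 factors and the least even one. It measured 33.2, 29.9 and 31.3 CPM in Ctrl against 11.8, 12.4 and 30.8 CPM in cKO. The Ctrl libraries lay close together, cKO replicates 1 and 2 were far below them, and cKO replicate 3 lay inside the Ctrl range. The pair ratios were 0.355, 0.415 and 0.981, from 1117, 919 and 1660 reads in Ctrl and 340, 521 and 2095 reads in cKO. The means were 31.5 ± 1.68 and 18.3 ± 10.8 CPM (SD, n = 3 per group), so the cKO mean was 58.2% of the Ctrl mean. The log2 difference was −0.88 with an interval of −1.71 to −0.06 (limma adjusted p = 0.751, and 0.136 with the block). Over replicates 1 and 2 alone, it was −1.31 (limma adjusted p = 0.00294). Without cKO replicate 3 only, it was also −1.31 (limma adjusted p = 0.0133). The direction was the same in these subsets, and whether Id3 passes the threshold rests on which libraries are used.

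Of 4 tested E proteins and other ID genes, none passed in either direction in either fit, with a median log2 difference of 0.03. Id2, the ID gene that dominates in effector cells, was far above Id3, at 2718, 2694 and 3273 CPM in Ctrl against 2335, 2829 and 3300 CPM in cKO. The ratio of Id2 CPM to Id3 CPM was 81.9, 90.2 and 104 in Ctrl and 198, 228 and 107 in cKO. Because Id2 varied less than Id3, this ratio mostly repeats the Id3 values and is no separate observation. Tcf12 and Tcf3, which encode the E proteins HEB and E2A, were at 89.2 ± 8.53 and 216 ± 23.8 CPM in Ctrl against 105 ± 18.6 and 233 ± 13.5 CPM in cKO (SD, n = 3 per group).

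**Figure D2:**
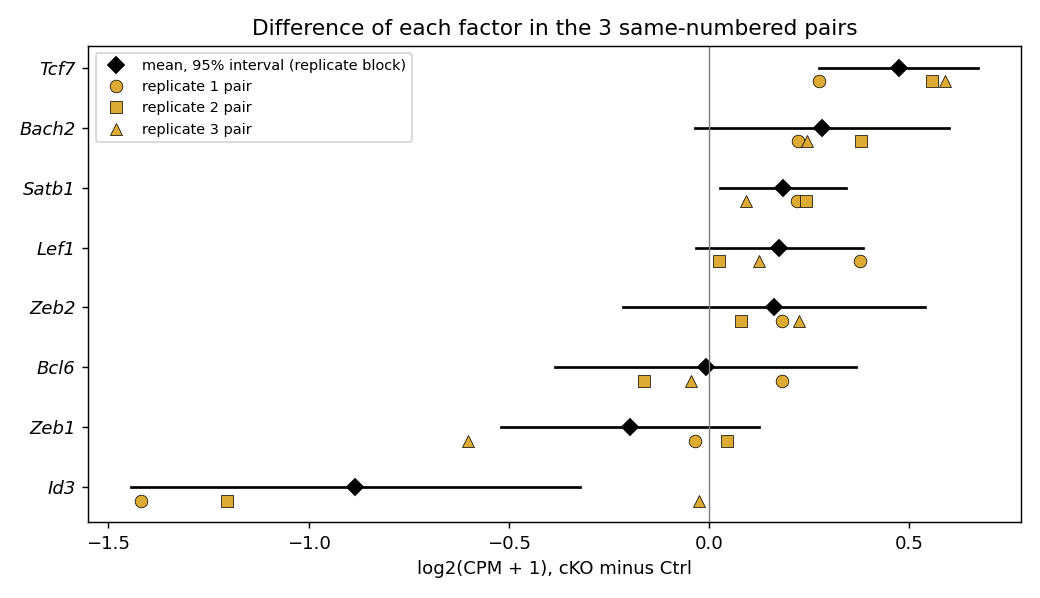
Difference of each factor, cKO minus Ctrl on the log2(CPM + 1) scale (horizontal axis), in the pairs of replicates 1, 2 and 3 (yellow circles, squares and triangles), with the mean (black diamond) and its 95% interval from limma with the replicate block (line). The intervals of Tcf7 and Satb1 lie above 0 and that of Id3 below it, and the replicate 3 pair of Id3 sits at −0.03.

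Zeb1 (ENSMUSG00000024238, chromosome 18, 5591860 to 5775467, plus strand) measured 50.01, 47.0 and 42.8 CPM in Ctrl against 48.8, 48.5 and 27.8 CPM in cKO. All libraries but cKO replicate 3 lay between 42.8 and 50.01 CPM, and that library was below them. The means were 46.6 ± 3.64 and 41.7 ± 12 CPM (SD, n = 3 per group), with pair ratios of 0.98, 1.03 and 0.651. The log2 difference of −0.20 had an interval of −0.73 to 0.33, and over replicates 1 and 2 alone it was 0.00452.

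Zeb2 (ENSMUSG00000026872, chromosome 2, 44983634 to 45117395, minus strand) measured 8.41, 4.68 and 0.283 CPM in Ctrl against 9.68, 4.996 and 0.499 CPM in cKO. These levels came from 283, 144 and 15 reads in Ctrl and 279, 210 and 34 reads in cKO. The libraries sorted by replicate number and not by group. The mean of replicates 1 and 2 was 6.94 CPM and that of replicate 3 was 0.391 CPM, a 17.7-fold gap. On the log2(CPM + 1) scale this gap was 2.46, and it was wider in 5.50% of all tested genes. Zeb2 belongs to the tested genes below 10 CPM, whose median gap was already 1.32 in the same direction. Within pairs, cKO was higher by 0.18, 0.08 and 0.22 on the log2 scale. The group means of 4.46 ± 4.07 and 5.06 ± 4.59 CPM (SD, n = 3 per group) carry an interval of −2.17 to 2.49 for the log2 difference of 0.16. With the block it was −0.22 to 0.54. Myeloid cells express Zeb2 strongly. Of 8 myeloid and dendritic markers, 5 were in the table, and Csf1r, Flt3 and Siglech were at 0 in at least 1 library. Their summed level followed the same split, at 6.83 to 14.3 CPM in replicates 1 and 2, 0.774 CPM in replicate 3 of Ctrl and 1.70 CPM in replicate 3 of cKO. The part of myeloid cells in the Zeb2 values was not tested.

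Of the 8 ZEB corepressors and SMAD partners, none passed in either direction in either fit, with a median log2 difference of 0.10. Smad3, which transmits the signal of the deleted receptor, was at 124 ± 14.4 CPM in Ctrl against 152 ± 12 CPM in cKO (SD, n = 3 per group; limma adjusted p = 0.716). Smad2 was at 68.2 ± 0.451 and 82.1 ± 6.79 CPM (limma adjusted p = 0.647). Ctbp1, the corepressor recruited by ZEB proteins, was at 327 ± 22.6 and 303 ± 19.9 CPM.

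Levels can be set against each other only per length, so CPM was divided by the kilobases of merged exons of each gene (GENCODE M21). In Ctrl, the order was Tcf7 (103.5 ± 13.5 CPM per kb), Satb1 (42.0 ± 4.52), Lef1 (20.7 ± 1.49), Id3 (17.6 ± 0.937), Zeb1 (4.54 ± 0.355), Bach2 (1.48 ± 0.184), Bcl6 (1.32 ± 0.259) and Zeb2 (0.224 ± 0.204), all SD with n = 3. Neighbours in this order did not overlap over the Ctrl libraries except Bach2 and Bcl6, at 1.27 to 1.62 and 1.03 to 1.53 CPM per kb. Scaled by the longest principal transcript, Satb1 came first in Ctrl at 128 ± 13.8 CPM per kb and overlapped Tcf7 at 110.0 ± 14.3. Bcl6 then stood above Bach2, at 2.5 ± 0.492 against 1.65 ± 0.206 CPM per kb. In both scalings the top 3 were Tcf7, Satb1 and Lef1, and Zeb2 was last. In cKO on the merged-exon scale, Tcf7 was at 143 ± 4.6, Satb1 at 47.7 ± 3.61, Lef1 at 23.4 ± 2.27 and Id3 at 10.2 ± 6.02 CPM per kb. In CPM, not scaled by length, the 8 factors summed to 1314 to 1406 in Ctrl and 1532 to 1612 in cKO, without overlap. Satb1 gave the largest share and, with Tcf7, most of each sum. By log2 difference, 5 of the 8 factors were higher and 3 lower in cKO.

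**Figure D3:**
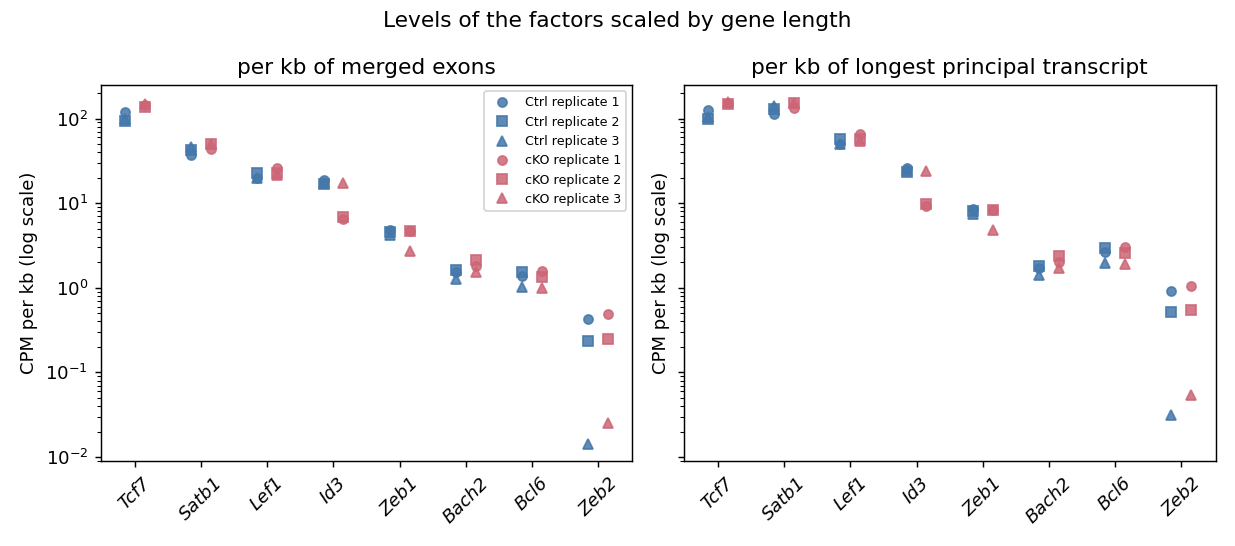
Level of each factor per kilobase on a log axis, in Ctrl (blue) and cKO (red) libraries with one symbol per replicate, scaled by merged exons (left) or by the longest principal transcript (right). Between the panels the means of Tcf7 and Satb1 change places in Ctrl but not in cKO, those of Bach2 and Bcl6 change places in both groups, and Zeb2 is lowest in both.

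Genes outside the 8 factors that mark quiescence, memory or its opposite were read from lists chosen with earlier results of these data known. Of 19 other quiescence factors, 1 passed as higher and none as lower, and with the block 4 passed as higher and 1 as lower (median log2 difference 0.09). Runx1, a partner of CBF-beta that acts throughout T cell development, measured 41.7, 46.5 and 49.8 CPM in Ctrl against 80.7, 91.0 and 88.9 CPM in cKO (limma adjusted p = 0.0189). The groups were far apart and each group was tight. Tsc22d3, which encodes the glucocorticoid-induced GILZ protein, was at 113 ± 0.976 CPM in Ctrl against 164 ± 26.6 CPM in cKO (SD, n = 3 per group; limma adjusted p = 0.295, and 0.0432 with the block). Btg1, an antiproliferative gene of resting T cells, was at 798 ± 68.3 and 596 ± 84.7 CPM (limma adjusted p = 0.442, and 0.0143 with the block). Klf3 and Slfn2, named after their values were seen, completed the calls with the block, both higher in cKO.

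Of 12 tested memory and naive surface genes, 8 had a higher and 4 a lower level in cKO by log2 difference. The 3 described here are all among the higher ones. Slamf6, a surface receptor carried by TCF-1-positive T cells, was at 20.7 ± 5.87 CPM in Ctrl against 51.4 ± 25.8 CPM in cKO (SD, n = 3 per group; limma adjusted p = 0.647, and 0.00460 with the block). Myb, named after its values were seen, was also called as higher with the block. Cd28 was at 299 ± 2.40 and 372 ± 13.9 CPM and passed neither fit (limma adjusted p = 0.239, and 0.0704 with the block).

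Of 13 tested terminal effector genes, 1 passed as higher and none as lower, and with the block 4 passed as higher and 1 as lower (median log2 difference 0.28). S1pr5, an egress receptor of effector cells, measured 9.45, 6.53 and 6.08 CPM in Ctrl against 50.1, 38.6 and 22.8 CPM in cKO (limma adjusted p = 0.0410). The chemokine gene Ccl5 was at 167 ± 25.5 and 372 ± 75.9 CPM (SD, n = 3 per group; limma adjusted p = 0.0631, and 0.000780 with the block). Cx3cr1, a chemokine receptor of terminally differentiated effectors, was at 10.3 ± 1.03 and 1.93 ± 0.888 CPM (limma adjusted p = 0.0646, and 0.00147 with the block). Klrg1 and Il2rb, named after their values were seen, were the remaining 2 calls with the block, both higher in cKO.

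Of 6 tested genes known from other cells as ZEB targets, 1 passed in each direction in both fits. Cdh1, the E-cadherin gene that ZEB proteins repress in epithelia, measured 258, 261 and 193 CPM in Ctrl against 2.91, 3.62 and 0.822 CPM in cKO, a log2 difference of −6.20 (limma adjusted p = 0.00215). S1pr5, the other call, is counted above. The other tested genes of this list passed neither fit, and the median log2 difference of the list was −0.03. Neither Zeb1 nor Zeb2 passed in either fit, but the Zeb2 interval without the block was wide, at −2.17 to 2.49. The part of ZEB proteins in the Cdh1 and S1pr5 differences was not tested.

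**Figure D4:**
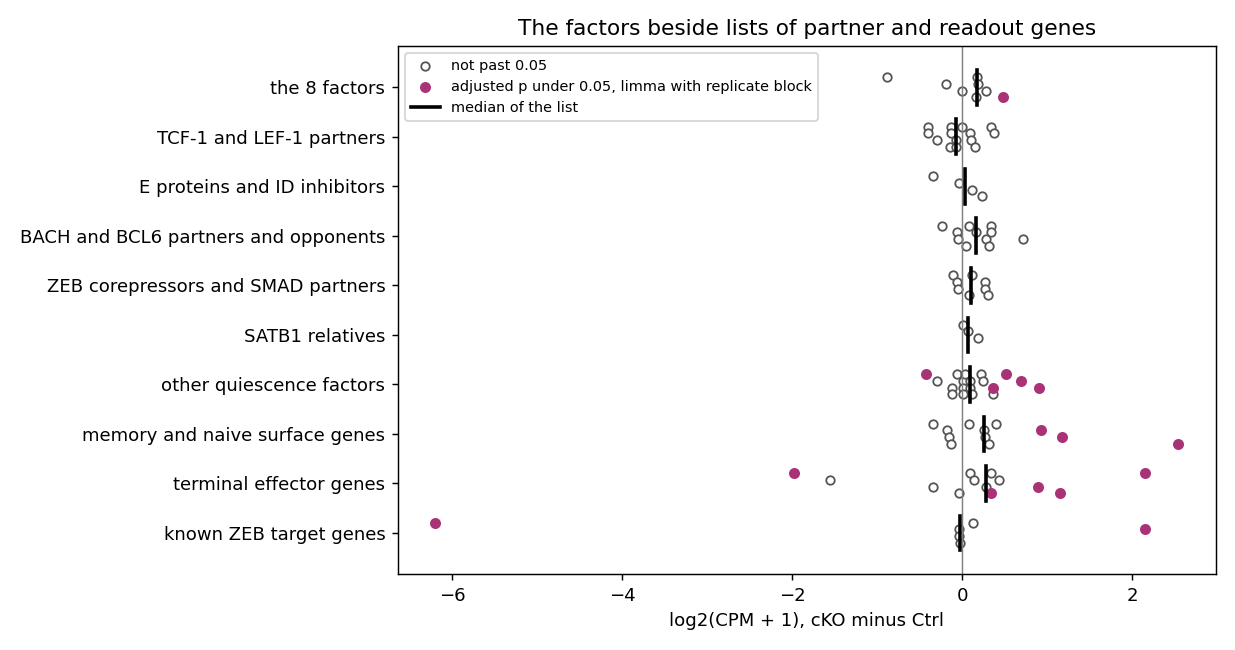
Difference of single genes, cKO minus Ctrl on the log2(CPM + 1) scale (horizontal axis), for the 8 factors and 9 lists of partner or readout genes, with filled points for an adjusted p under 0.05 in limma with the replicate block and a bar for the median of the list. Tcf7 is the filled point among the factors, and the partner lists hold no filled point, while the quiescence, effector and target lists hold 5, 5 and 2.

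For each factor, the 2 genes with the most similar pattern were taken from 10134 genes averaging 5 CPM or more, by Pearson's r over the 6 libraries after the mean of each replicate number was subtracted. Only the 3 pair differences remain after that step, so r above 0.99 is easily reached among so many genes. The nearest genes were Max and Yipf1 for Tcf7, Mapk8 and Tspan31 for Lef1, Gbp6 and Pak6 for Satb1, Hpcal1 and Usp33 for Bach2, and Ccdc12 and Vps33a for Bcl6. They were Cadm2 and Guk1 for Id3, Dtymk and Ash2l for Zeb1, and Nr3c1 and Tsc22d3 for Zeb2. Max had pair differences of 0.16, 0.32 and 0.35 beside 0.27, 0.56 and 0.59 for Tcf7 on the log2 scale. Guk1 had −0.36, −0.30 and 0.01 beside −1.42, −1.20 and −0.03 for Id3.

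Some counts carry an uncertainty of assignment, because whether reads were counted by strand was not stated in the labels. Opposite-strand genes share exon bases with Lef1 (Gm43352, 1208 bases), Zeb2 (Zeb2os, 653 bases), Bach2 (Bach2os, 537 bases) and Zeb1 (Gm10125, 198 bases) in GENCODE M21. Bach2os was at 0.0147 to 1.39 CPM, far below Bach2. Gm10125 was at 3.64 to 9.23 CPM in replicates 1 and 2 and at 0.359 and 0.22 CPM in replicate 3. Satb1 shared 156 and 128 exon bases with Gm36931 and Gm6934, and Bcl6 shared 21 with Gm37419. Tcf7 and Id3 shared no exon base with another gene of that annotation.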

How the data were processed

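Per the submitters' processing notes, reads were handled with Trimmomatic 0.33, STAR 2.5.2, HTSeq 0.6.1 and edgeR (no version given) on build mm10; annotation and strand setting are not given in the sources used here. The authors deposited CPM per gene and library, with a log2 fold change and average log2 CPM, a likelihood-ratio score, and raw and adjusted p-values. The deposited columns named WT and KO were taken as Ctrl and cKO by tissue and replicate number. All CPM values came out as whole reads (100% within 0.1 of a read), so the reads were recovered for the count alternatives. The deposited gene length equalled exons summed over transcripts for 59.11% of genes and was not used.

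limma 3.58.1 (R 4.3.3; mean-variance trend, robust empirical Bayes) was fitted to log2(CPM + 1) over all 6 libraries with group as the only term. It covered genes averaging 1 CPM or more, with Benjamini-Hochberg adjustment over 15691 genes. Differences on that scale understate the change of low genes, and all tests were two-sided. An exact permutation test of 3 against 3 cannot give a p below 0.1, and none was run. Deviations from the group means correlated between same-numbered libraries at 0.855, 0.687 and 0.924, and the numbers were taken to pair the libraries. Replicate 3 stood apart from replicates 1 and 2 in both groups. The correlations therefore cannot show whether replicates 1 and 2 are matched by number, and no label says what the libraries share. Alternatives covered the pseudocount, filter, scaling (TMM, size factors), the block, edgeR 4.0.16 quasi-likelihood, DESeq2 1.42.0 and left-out libraries. On simulated data of 15691 genes, limma recovered 20% of 2-fold and 2% of 1.5-fold changes (50 genes each), with 0 false calls. With the block it recovered 86% and 48%, with 5 false calls. Unchanged genes had the same mean in same-numbered libraries, so the gain with the block was built in and does not show that the block suits the real libraries. Changed genes were drawn from those averaging 5 CPM or more.

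The factors and lists were chosen with earlier results of these data known. All 8 factors and Tgfbr2 are named, and of each list up to 4 genes by smallest p. For each factor, the 2 nearest genes are given. Some genes that these rules select are not reported here. Intervals are 95%, and reads without molecular identifiers give counting error only.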

Additional observations from a re-analysis of the deposited data

How the results depend on the processing

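The count of all genes called was 104 (32 higher, 72 lower in cKO) and stayed within 98 to 110 under other pseudocounts, no filter, TMM scaling and size factors. It was 451 with the replicate block (194 higher, 257 lower), 513 with TMM scaling and the replicate block (244 higher, 269 lower), 40 with edgeR, 469 with edgeR and the replicate block, 552 with DESeq2 (279 higher, 273 lower; 3042 genes had no adjusted p) and 296 over replicates 1 and 2 only. It ranged from 14 to 97 when single libraries were left out. With the replicate block it was 345, 426 and 897 without the pairs of replicate 1, 2 and 3, an alternative chosen after seeing the data. The count of factors called was 0 in limma and in edgeR (1 with an unadjusted p below 0.05 in edgeR, 2 in limma). It was 1 (Tcf7) with the replicate block, with TMM and the block, with edgeR and the block, and with DESeq2, and 1 (Id3) over replicates 1 and 2 only. With libraries or pairs left out it ranged from 0 to 3. The count of 3 (Tcf7, Id3 and Satb1) came without replicate 3 and with the block, where 1 residual degree of freedom per gene remained.

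Tcf7 kept its direction in all 11 alternatives that used no left-out library or only dropped replicate 3 (0.41 to 0.52), with adjusted p from 0.00112 to 0.338. Lef1, Bach2, Id3, Satb1 and Zeb2 also kept theirs in those 11. Bcl6, at −0.01, changed sign to 0.0292 under TMM with and without the block, 0.0347 under size factors, 0.0293 with edgeR, 0.0328 with edgeR and the block, 0.0369 with DESeq2 and 0.00886 over replicates 1 and 2 only; leaving libraries out gave −0.158 to 0.158, and leaving out the replicate 2 pair with the block 0.0680. Zeb1 was 0.00452 over replicates 1 and 2 only, and −0.330 to 0.0634 with libraries left out. Zeb2 ranged from −0.675 to 0.967 with single libraries left out, and from 0.13 to 0.20 with whole pairs left out and the block. The cause of these shifts was not tested. Zeb2 had 15 to 283 reads per library, the fewest in the deepest libraries.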
